A study of Homo sapiens with 4 samples.

Results

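This account covers 9 genes of inflammatory signalling, IL1A, IL1B, IL1R1, IL1RAP, CSF1, CSF2, CSF3, TNF and PTGS2, among the 20140 genes of the deposited tables. They were chosen by gene name, and every one of the 9 was found under 1 gene ID. RNA was sequenced from MDA-MB-231, a human triple-negative breast cancer line grown in L-15 medium with serum, after knockdown of AURKA (2 libraries, titled shA) and in control cells (2 libraries, titled shC). The kinase encoded by AURKA, Aurora A, acts in mitosis, and the title of the series asks which genes depend on it for their transcription. The design text calls the controls mock-transfected, while their titles carry the shC name, so whether they held a hairpin is not stated, nor is the hairpin or whether a line was a single clone. The design text calls the libraries of a group biological replicates, and nothing says that they came from separate days, so the p-values measure the spread between these samples only. Values are FPKM (fragments per kilobase of transcript, scaled to the library's fragments), summed over the annotated transcripts of a gene.

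IL-1α and IL-1β, encoded by IL1A and IL1B, are cytokines that bind the receptor IL1R1, which then pairs with the accessory chain IL1RAP and signals through MYD88 and IRAK kinases to NF-kappaB and AP-1. CSF1, CSF2 and CSF3 encode the colony-stimulating factors M-CSF, GM-CSF and G-CSF, which drive the growth and maturation of macrophages and granulocytes, and TNF encodes tumour necrosis factor. PTGS2 encodes cyclooxygenase-2 (COX-2), the inducible enzyme that makes prostaglandin H2, the precursor of prostaglandin E2. Tumour cells can make all of these, and several of the mRNAs are short-lived because their 3′ UTRs hold AU-rich elements, to which decay factors such as ZFP36 bind.

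The mRNAs of IL1B, CSF2, TNF and PTGS2 held a full AU-rich nonamer in the 3′ UTR, and those of the other members did not. The sites are shown because this feature was no part of how the genes were chosen. The word searched was TTATTTATT on the mRNA strand of GENCODE 29 transcripts, in the transcript of each gene with the highest value here among those with an annotated 3′ UTR. This search was added after the expression values had been seen. The UTRs set beside them are the longest of each of 19126 protein coding genes, chosen without regard to values here. The word occurred 3 times in the 318-base UTR of CSF2, and 1.77% of 3′ UTRs of similar length (0.8 to 1.25 times) held it. It occurred 5 times in the 799 bases of TNF (5.05% of similar UTRs), 2 times in the 610 bases of IL1B (3.7%) and 1 time in the 2562 bases of PTGS2 (13%). IL1A, IL1R1, IL1RAP, CSF1 and CSF3 had 0 matches in the UTRs searched. For IL1R1 that UTR belongs to ENST00000410023, which took at most 17.0% of the gene's value in a library. The shorter core ATTTA occurred 5 times in IL1A, 8 in IL1R1, 15 in IL1RAP, 4 in CSF1 and 7 in CSF3. How often other UTRs hold this core was not counted. The densest 30-base sites, with every ATTTA in capitals, read as follows.
CSF2: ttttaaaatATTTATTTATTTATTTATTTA
TNF: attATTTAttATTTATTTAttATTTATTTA
IL1B: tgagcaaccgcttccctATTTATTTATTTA
PTGS2: aagtctaatgatcatATTTATTTATTTAta
The site of PTGS2 covers bases 1 to 30 of its UTR. In CSF2 and TNF the densest site held 5 copies of ATTTA, against 3 in IL1B and PTGS2. A match is a description of letters and shows no binding.

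The 250 bases upstream of IL1A, IL1B, CSF2 and PTGS2 are shown because these genes, with CSF1, which is not shown, lay more than 1.5 times higher in 1 control library than in any other. The windows are those of RefSeq on GRCh38.p14, 5′ to 3′ on the gene's strand, with matches to 4 motifs in capitals, both strands searched: a kappaB-type word (GGG, any 5 bases, then CC), TGANTCA (AP-1 type), TGACG (the core of a cyclic AMP response element, CRE) and TATAAA.
IL1A, chr2:112784494-112784743, minus strand: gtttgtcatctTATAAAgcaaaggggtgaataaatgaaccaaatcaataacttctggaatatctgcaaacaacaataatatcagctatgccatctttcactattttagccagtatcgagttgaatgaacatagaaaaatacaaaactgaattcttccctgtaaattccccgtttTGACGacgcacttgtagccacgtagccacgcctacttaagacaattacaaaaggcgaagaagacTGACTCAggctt
IL1B, chr2:112836780-112837029, minus strand: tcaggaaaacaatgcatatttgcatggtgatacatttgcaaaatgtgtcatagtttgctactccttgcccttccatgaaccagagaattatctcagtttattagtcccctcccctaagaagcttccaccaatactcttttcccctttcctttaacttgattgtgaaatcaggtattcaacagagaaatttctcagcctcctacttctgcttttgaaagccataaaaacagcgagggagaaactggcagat
CSF2, chr5:132073539-132073788, plus strand: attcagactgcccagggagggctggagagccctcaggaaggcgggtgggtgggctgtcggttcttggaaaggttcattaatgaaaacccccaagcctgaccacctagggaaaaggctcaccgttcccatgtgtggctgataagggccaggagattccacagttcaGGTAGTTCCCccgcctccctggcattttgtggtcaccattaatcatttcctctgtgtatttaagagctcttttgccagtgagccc
PTGS2, chr1:186680424-186680673, minus strand: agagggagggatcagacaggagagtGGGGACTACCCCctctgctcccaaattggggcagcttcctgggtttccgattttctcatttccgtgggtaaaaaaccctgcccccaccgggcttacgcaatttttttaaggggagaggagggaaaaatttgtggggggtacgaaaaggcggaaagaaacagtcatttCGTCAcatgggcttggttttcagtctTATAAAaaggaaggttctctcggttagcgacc
In PTGS2 the run in capitals farthest upstream is 4 overlapping kappaB-type matches, the first at position -225 from the start, and it is followed by a CRE core on the opposite strand and a TATAAA word at -32. CSF2 held a kappaB-type match on the opposite strand at -85. IL1A held an AP-1-type match at -12, a CRE core and a TATAAA word far upstream, and no kappaB-type match in this window, whose start lies 97 bases from that of the GENCODE transcript. Windows close to the start of the transcript used were found for 6 of the 9 genes. The kappaB-type word matched in 4 of the 6, IL1RAP, CSF2, TNF and PTGS2, and in 54.4% of 35116 windows of the same length, so it is common. The AP-1-type word matched in 1 of 6 and in 6.57% of windows, the CRE core in 2 of 6 and 21.2%, and TATAAA in 3 of 6 and 10.7%. IL1B had 0 matches to any of the 4 in its window, whose start lies 124 bases from that of the GENCODE transcript.

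Before the members, the libraries were checked. The sums over all genes were 718978 to 761641 FPKM, with 11739 to 12177 genes at 1 FPKM or more, and 16.0% to 19.0% of each sum came from mitochondrial genes. The files hold no read totals, and a rough depth, lowest in control replicate 1, was read from the value of 1 fragment in low genes. AURKA itself was at 22.3 and 23.7 FPKM after knockdown, against 124 and 99.1 FPKM in control cells (log2 difference -2.22, standard error 0.15, limma adjusted p 0.0822, and 0.000633 with the replicate number as a term), and the groups did not overlap. Its log2 difference was -2.42 within replicate number 1 and -2.02 within number 2. The 6 mesenchymal and basal markers of the line summed to 3664 to 4244 FPKM. The 6 markers listed as low in the line summed to 122 to 145 FPKM, with 3 of them at 1 FPKM or more in all 4 libraries, KRT19 at 102 to 122 FPKM, ERBB2 at 16.5 to 20.2 FPKM and EPCAM at 2.49 to 3.30 FPKM, so these 3 went against that list. Of the leukocyte markers, CD3E and MS4A1 were listed at 0 in all 4 libraries, while NKG7 (0.0955 FPKM) and PTPRC (0.0120 FPKM) were above 0 in control replicate 1 alone. Of 7 macrophage and monocyte markers only CD68 was at 1 FPKM or more in all 4 libraries, and MARCO was at 0. This list summed to 48.6 and 53.5 FPKM in the knockdown libraries and 65.3 and 65.1 FPKM in the controls, nearly all of it CD68, and its part in the results was not tested. The tables of 1 replicate number share their row order and transcript set, and those of the other number have different ones, so the differences of the 7 genes tested are also given within a number and with the replicate number as a term.

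Control replicate 1 stood apart in these genes. It was the highest of the 4 libraries in 6 of the 7 genes tested, and lay more than 1.5 times above every other library in 5 of them, IL1A, IL1B, CSF1, CSF2 and PTGS2. Among all 12137 genes tested, control replicate 1 was the highest library in 33.9% and lay 1.5 times above the others in 2.47%. This 1.5-fold mark was set after the values had been seen. The 4 fibroblast markers summed to 4.54 and 3.10 FPKM in the knockdown libraries and 6.38 and 3.24 FPKM in the controls. COL1A1 was at 2.29 and 1.17 FPKM against 3.61 and 1.04 FPKM, and PDGFRB at 2.24 and 1.37 FPKM against 2.77 and 1.44 FPKM. DCN was at 0 in replicate 1 of both groups, and at 0.342 and 0.464 FPKM in replicate 2 of knockdown and control. LUM was at 0.0156 and 0.216 FPKM in the knockdown libraries and 0 and 0.301 FPKM in the controls. The 2 endothelial markers found summed to at most 0.130 FPKM. The part of these markers in the results was not tested. The differences that rest on this library are given with and without it.

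At the level of the whole set, no member passed the test in either direction. Genes were tested with limma on log2(FPKM + 1), two-sided, with Benjamini-Hochberg adjustment over 12137 genes that had at least 1 FPKM in at least 2 libraries. The 7 genes IL1A, IL1B, IL1R1, IL1RAP, CSF1, CSF2 and PTGS2 entered the test, and CSF3 and TNF were too low. With an adjusted p under 0.05, 0 of the 7 were called, and so were 0% of all genes tested. At an unadjusted p under 0.05 the counts were 0 of 7 and 777 of all genes, or 6.4%. With the replicate number as a term, 0 of the 7 were called, against 3.52% of all genes. The log2 difference was below 0 in 6 of the 7 and in 47.7% of all genes tested. Its median over the 7 was -0.18, against 0.012 over all genes tested. Within replicate number 1 the median of the 7 was -1.02 and within number 2 it was 0.023, against -0.0071 and 0.027 over all genes. Only 3 of the 7 had the same sign in both numbers, against 67.1% of all genes.

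**Figure D1:**
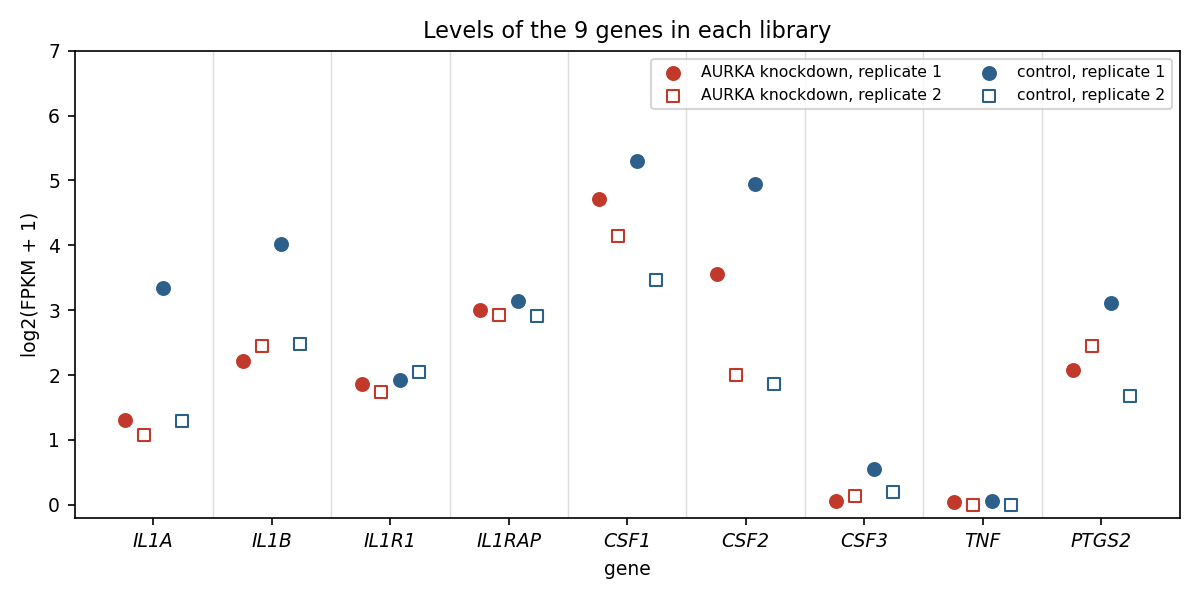
Level of each of the 9 genes in each library, as log2(FPKM + 1) on the vertical axis. Red symbols are the AURKA knockdown libraries and blue symbols the control libraries, filled circles for replicate 1 and open squares for replicate 2. Control replicate 1 stands more than 1.5 times above the other libraries, in FPKM, in IL1A, IL1B, CSF1, CSF2 and PTGS2, while IL1R1 and IL1RAP vary little and CSF3 and TNF lie near 0.

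Both IL-1 cytokine genes had their highest value in control replicate 1 and similar values in the other 3 libraries. IL1A (ENSG00000115008, chr2:113531492-113542167, GRCh37) stood at 1.48 and 1.11 FPKM in the knockdown libraries, against 9.15 and 1.45 FPKM in the control libraries. In such bulk RNA, fewer cells that express a gene and less RNA per cell cannot be told apart. Only control replicate 1 was high, and the groups overlapped, since knockdown replicate 1 lay just above control replicate 2. The log2 difference was -1.12 with a standard error of 0.66 (limma adjusted p 0.849, and 0.151 with the replicate number as a term). It was -2.04 within replicate number 1 and -0.21 within number 2. Of all genes tested, 9 had a lower difference than IL1A within number 1. Without control replicate 1 the difference was -0.099, and without control replicate 2 it was -2.15 and passed (limma adjusted p 0.0425), so the call turns on which control is kept.

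IL1B (ENSG00000125538, chr2:113587328-113594480) stood at 3.67 and 4.47 FPKM in the knockdown libraries and 15.2 and 4.56 FPKM in the control libraries. The groups did not overlap, but knockdown replicate 2 lay just under control replicate 2. The log2 difference was -0.91 with a standard error of 0.50 (limma adjusted p 0.835, and 0.203 with the replicate number as a term). Within number 1 it was -1.79 and within number 2 it was -0.023. Without control replicate 1 the difference was -0.14. IL1A and IL1B thus shared 1 high library and differed in level, with IL1B at 4.07 ± 0.57 FPKM and IL1A at 1.29 ± 0.26 FPKM in the knockdown (SD, n = 2 each).

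The receptor chains did not follow the cytokines. IL1R1 (ENSG00000115594, chr2:102681004-102796334), the signalling receptor of both cytokines, stood at 2.66 and 2.35 FPKM in the knockdown libraries and 2.81 and 3.12 FPKM in the controls. Both knockdown libraries lay below both controls, with a log2 difference of -0.18 and a standard error of 0.19 (limma adjusted p 0.921, and 0.537 with the replicate number as a term). Within number 1 it was -0.060 and within number 2 it was -0.30. IL1RAP (ENSG00000196083, chr3:190231840-190375843), the accessory chain, stood at 6.99 and 6.63 FPKM in the knockdown libraries and 7.83 and 6.51 FPKM in the controls. These values overlapped, and the log2 difference was -0.061 with a standard error of 0.17 (limma adjusted p 0.98, and 0.817 with the replicate number as a term). Within number 1 the difference was -0.14, within number 2 it was 0.023, and without control replicate 1 it was 0.057. Groups that did not overlap were thus seen in 2 of the 7 genes tested, IL1B and IL1R1, and in 35.9% of all genes tested. Both were lower in the knockdown, and 16.6% of all genes tested had groups that did not overlap in that direction.

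Among the colony-stimulating factors, CSF1 and CSF2 were read in every library and CSF3 was close to 0. CSF1 (ENSG00000184371, chr1:110452864-110473614), the most abundant of the 9 genes, stood at 25.3 and 16.7 FPKM in the knockdown libraries and 38.3 and 10.02 FPKM in the controls. The controls enclosed the knockdown values. The mean was 21.0 ± 6.1 FPKM in the knockdown and 24.1 ± 19.98 FPKM in the controls (SD, n = 2 each), while the difference of mean log2 values was 0.050 with a standard error of 0.60, so the sign depends on the scale (limma adjusted p 0.998, and 0.935 with the replicate number as a term). Within number 1 the log2 difference was -0.58 and within number 2 it was 0.68. It was 0.97 without control replicate 1 (limma adjusted p 0.364) and -0.87 without control replicate 2 (limma adjusted p 0.262).

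CSF2 (ENSG00000164400, chr5:131409483-131411859) had the widest range of the 9. It stood at 10.8 and 2.98 FPKM in the knockdown libraries, against 29.8 and 2.64 FPKM in the controls. Replicate 1 was the higher library in both groups, by 3.61-fold in the knockdown and 11.3-fold in the controls. Of all genes tested, 12 had a larger log2 excess of replicate 1 over replicate 2 among the knockdown libraries and 6 among the controls. The log2 difference between knockdown and control was -0.63 with a standard error of 1.06 (limma adjusted p 0.961, and 0.288 with the replicate number as a term). Within number 1 it was -1.39 and within number 2 it was 0.13. Without control replicate 1 it was 0.91 (limma adjusted p 0.669).

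CSF3 (ENSG00000108342, chr17:38171614-38174066) was at 0.0392 and 0.105 FPKM in the knockdown libraries and 0.463 and 0.151 FPKM in the controls. Control replicate 1 again held the highest value, at a level too low to test. TNF (ENSG00000232810, chr6:31543344-31546113) was at 0.0304 and 0 FPKM in the knockdown libraries and 0.0371 and 0 FPKM in the controls. At these rough depths, each of the 2 values above 0 comes to 1.08 fragments, so TNF mRNA was near the limit of detection in all 4 libraries and no fold is given.

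PTGS2 (ENSG00000073756, chr1:186640923-186649559) stood at 3.25 and 4.47 FPKM in the knockdown libraries and 7.64 and 2.19 FPKM in the controls. Control replicate 1 was the highest library and control replicate 2 the lowest, and the knockdown values lay between them. The log2 difference was -0.12 with a standard error of 0.48 (limma adjusted p 0.989, and 0.881 with the replicate number as a term). Within number 1 it was -1.02, and 84 of all genes tested were lower. Within number 2 it was 0.78, and 122 of all genes tested were higher. Without control replicate 1 it was 0.60 (limma adjusted p 0.592). At rough depths the values rest on 311 and 558 fragments in the knockdown libraries and 599 and 239 in the controls, and those of IL1A on 66.5 and 65.3 against 337 and 74.6.

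**Figure D2:**
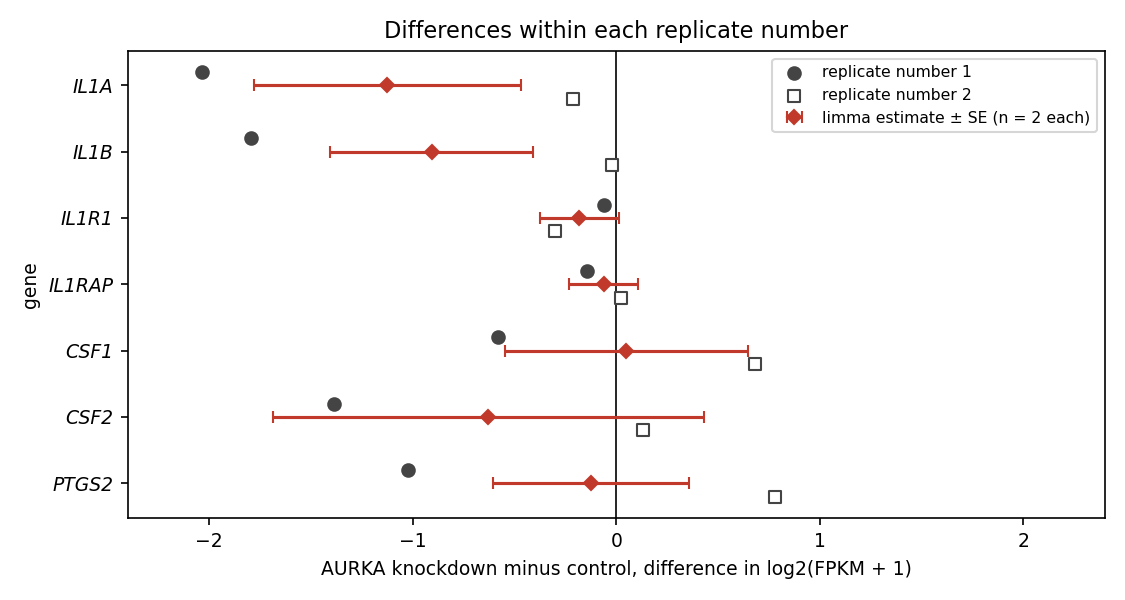
AURKA knockdown minus control for the 7 genes tested, as a difference in log2(FPKM + 1) on the horizontal axis. Filled circles are replicate number 1, open squares replicate number 2, and red diamonds the limma estimate with its standard error (n = 2 each). IL1A, IL1B, CSF2 and PTGS2 lie at or below -1.02 in number 1 and between -0.21 and 0.78 in number 2.

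Per kilobase, the order of levels in the knockdown was CSF1, CSF2, IL1RAP, IL1B, PTGS2, IL1R1, IL1A, CSF3 and TNF. There CSF2 overlapped IL1RAP and IL1B overlapped PTGS2 in their library values, and the other neighbours did not overlap. The range of CSF2, 2.98 to 10.8 FPKM, also took in the values of IL1B and PTGS2, so its place does not hold beyond that spread. In the controls the order was CSF1, CSF2, IL1B, IL1RAP, IL1A, PTGS2, IL1R1, CSF3 and TNF. Each neighbour among the first 7 overlapped the next there, so that order does not hold beyond the spread between the libraries.

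The transcript values showed which annotated forms carried CSF1 and IL1RAP. Transcripts coding for the 554-residue CSF1 precursor, which can be cut to release the secreted factor, took 71.8% and 71.5% of the gene's value in the knockdown libraries and 68.6% and 79.4% in the controls. The form of 256 residues, a shorter membrane-anchored precursor, took 4.39% and 7.18% in the knockdown and 4.40% and 5.25% in the controls. A transcript with a short annotated coding sequence (119 residues) took 20.7% and 15.9% in the knockdown and 20.7% and 13.6% in the controls. The gene's level was 3.82-fold higher in control replicate 1 than in control replicate 2. A share has an upper bound and a level has none, so their spreads cannot be compared. For IL1RAP, the 570-residue membrane form took 60.6% and 55.4% in the knockdown and 51.2% and 61.6% in the controls. The 356-residue form, which lacks the membrane anchor and is secreted as a decoy, took 25.9% and 25.6% in the knockdown and 25.3% and 17.4% in the controls. Shares overlapped between the groups for these forms, except that of the 356-residue form, higher in both knockdown libraries. Its nearest shares were 25.6% in knockdown replicate 2 and 25.3% in control replicate 1. How often shares of other genes did not overlap was not counted. No test was run on shares, which are estimates of the authors' quantifier: for the 356-residue form, ENST00000422485 was at 1.26 and 1.70 FPKM in the knockdown libraries and 0.00096 and 1.13 FPKM in the controls, while ENST00000422940, with the same coding length, was at 0.555 and 0.0003 FPKM in the knockdown and 1.98 and 0.00014 FPKM in the controls. The sum of both was 1.81 and 1.70 FPKM in the knockdown libraries and 1.98 and 1.13 FPKM in the controls. Of the 12 IL1R1 transcripts, ENST00000233946 took the most in 3 libraries, with 62.3% and 48.8% in the knockdown libraries and 41.3% in control replicate 1, and 23.6% in control replicate 2. ENST00000233946 is not in GENCODE 29, so its coding length is not given and its 3′ UTR was not searched.

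**Figure D3:**
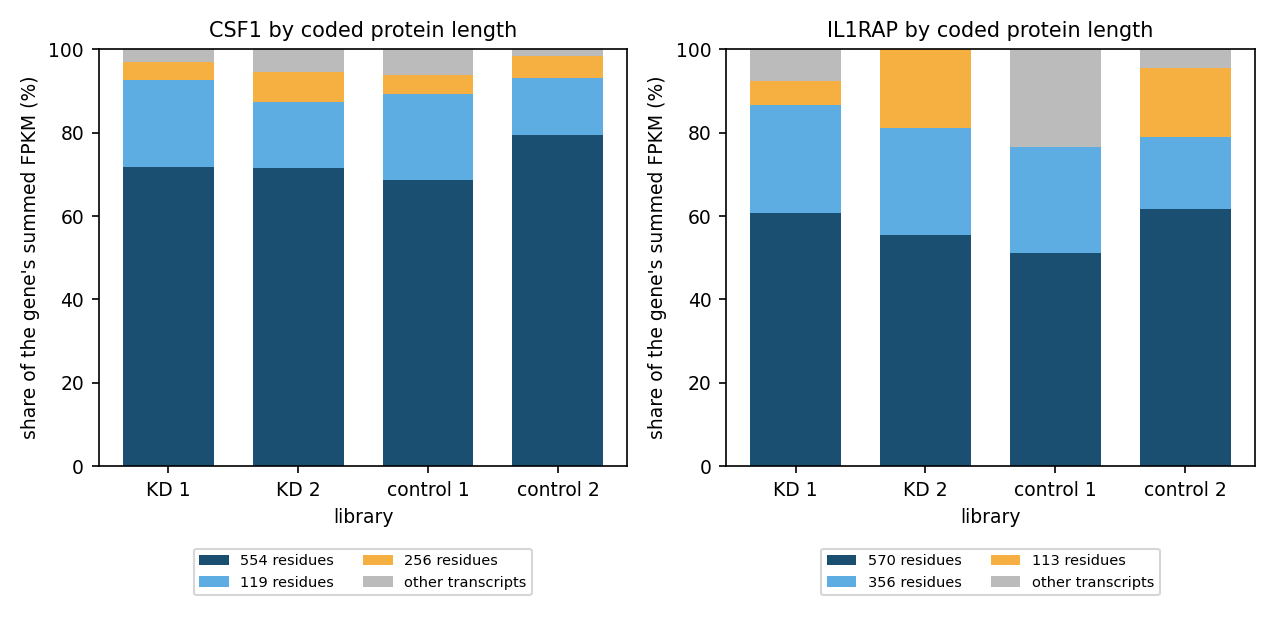
Share of the summed FPKM of CSF1 (left) and IL1RAP (right) by the protein length that the GENCODE 29 coding sequence of each transcript gives, in percent, for the AURKA knockdown (KD) and control libraries. The 3 lengths with the highest mean FPKM are drawn for each gene and the rest are joined as other transcripts. The 554-residue form of CSF1 takes 68.6% to 79.4% and the 570-residue form of IL1RAP 51.2% to 61.6%.

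The list of the wider IL-1 system holds related ligands, decoys and receptors as well as the adaptors and kinases of the pathway. Of its 25 genes 12 were tested, and IL18, an IL-1 family cytokine with a receptor of its own, was the 1 gene called, with the replicate number as a term. IL18 stood at 35.0 and 37.8 FPKM in the knockdown libraries and 25.0 and 26.5 FPKM in the controls. The groups did not overlap, and the log2 difference was 0.48 with a standard error of 0.12 (limma adjusted p 0.537, and 0.0349 with the replicate number as a term). Within number 1 it was 0.47 and within number 2 it was 0.50. None of the 12 passed without that term, where 1 had an unadjusted p under 0.05. The calls of the fit with the term covered 1.6% of all genes in the higher and 1.92% in the lower direction. IRAK1, the receptor-proximal kinase, was at 65.8 and 69.5 FPKM in the knockdown libraries and 59.9 and 70.02 FPKM in the controls, and TAB2, an adaptor of the kinase TAK1, at 45.6 and 45.0 FPKM against 43.5 and 42.7 FPKM. IRAK2, a related kinase named after its values had been seen, was at 3.79 and 2.82 FPKM in the knockdown libraries and 10.3 and 2.84 FPKM in the controls, with the same high library as IL1A and IL1B. Its log2 difference was -0.62 with all libraries and 0.16 without control replicate 1 (limma adjusted p 0.896 and 0.891). The list's median log2 difference was 0.0026, against 0.012 over all genes tested. Control replicate 1 lay more than 1.5 times above every other library in 1 of the 12, IRAK2, and in 2.47% of all genes tested.

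Of 9 genes of colony-stimulating factor receptors and their kin, CSF2RA alone reached the level for testing. CSF2RA, the ligand-binding chain of the GM-CSF receptor, stood at 14.0 and 13.7 FPKM in the knockdown libraries and 9.12 and 9.23 FPKM in the controls. Both knockdown libraries lay above both controls, and CSF2RA passed only where the replicate number was a term (log2 difference 0.55, standard error 0.14, limma adjusted p 0.537 without that term and 0.0473 with it). Within number 1 the difference was 0.57 and within number 2 it was 0.53. The gene lies in the pseudoautosomal region, where the X and Y copies have nearly the same sequence, so its reads may be split between copies. The signalling chain CSF2RB, named after its values had been seen, was listed at 0 in 3 libraries and at 0.03 FPKM in control replicate 2. CSF1R, the receptor of M-CSF, was at 0.39 and 0.44 FPKM in the knockdown libraries and 0.69 and 0.61 FPKM in the controls.

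Genes of TNF reception did not pass in either fit. Of 13 listed, 10 were tested. The log2 difference was above 0 in 6 of the 10 and in 6351 of all 12137 genes tested. Its median was 0.18, against 0.012 over all genes tested. In 2 of the 10, BIRC3 and TRAF1, control replicate 1 lay more than 1.5 times above every other library, as it did in 2.47% of all genes tested. TNFRSF1A, the widely expressed TNF receptor, was at 71.2 and 54.3 FPKM in the knockdown libraries and 61.5 and 48.3 FPKM in the controls. CASP8, the initiator caspase, was at 51.4 and 60.5 FPKM in the knockdown libraries and 47.2 and 49.9 FPKM in the controls. BIRC3, a ubiquitin ligase and NF-kappaB target named after its values had been seen, was at 4.04 and 2.76 FPKM in the knockdown libraries and 13.3 and 3.78 FPKM in the controls. Its log2 difference was -0.93 with all libraries and -0.14 without control replicate 1 (limma adjusted p 0.844 and 0.906).

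Of 22 genes around PTGS2 in prostaglandin synthesis, breakdown and reception, 11 were tested and 0 passed in either fit. Their median log2 difference was -0.092, against 0.012 over all genes tested. It was above 0 in 5 of them and below 0 in 6, and below 0 in 47.7% of all genes tested. In 0 of the 11, control replicate 1 lay more than 1.5 times above every other library, against 2.47% of all genes tested. PTGES3, a cochaperone also known as cytosolic prostaglandin E synthase, was at 267 and 322 FPKM in the knockdown libraries and 314 and 378 FPKM in the controls. PTGES, the inducible microsomal prostaglandin E synthase, was at 37.3 and 40.4 FPKM in the knockdown libraries and 45.4 and 40.6 FPKM in the controls. PTGS1, the constitutive cyclooxygenase, named after its values had been seen, lay under 0.1 FPKM in each library.

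Among proteins that bind AU-rich elements, 12 of 13 listed names were found and tested, the other name being a synonym of HNRNPD. ZFP36L1, which promotes the decay of such mRNAs, was the 1 gene called, lower in the knockdown with the replicate number as a term. That fit called 1.92% of all genes tested lower. It stood at 52.5 and 39.2 FPKM in the knockdown libraries and 82.8 and 52.2 FPKM in the controls, with knockdown replicate 1 just above control replicate 2 (log2 difference -0.53, standard error 0.26, limma adjusted p 0.816, and 0.0333 with the term). Within number 1 the difference was -0.65 and within number 2 it was -0.41. Control replicate 1 was more than 1.5 times above the other libraries in ZFP36L1 too, and without it the difference was -0.20 and did not pass (limma adjusted p 0.808, with the group alone in the fit, since 3 libraries leave nothing to test with the term). Its relative ZFP36 (tristetraprolin), named after its values had been seen, was at 12.1 and 8.02 FPKM in the knockdown libraries and 35.2 and 8.23 FPKM in the controls, and did not pass in either fit. The log2 difference of ZFP36 was -0.75 with all libraries and 0.24 without control replicate 1 (limma adjusted p 0.902 and 0.825). HNRNPD was at 359 and 437 FPKM in the knockdown libraries and 336 and 498 FPKM in the controls, and KHSRP at 215 and 229 FPKM against 188 and 216 FPKM. The list's median log2 difference was 0.024, against 0.012 over all genes tested. In 3 of the 12 tested, ZFP36, ZFP36L1 and ZC3H12A, control replicate 1 lay more than 1.5 times above every other library. It did so in 2.47% of all genes tested.

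**Figure D4:**
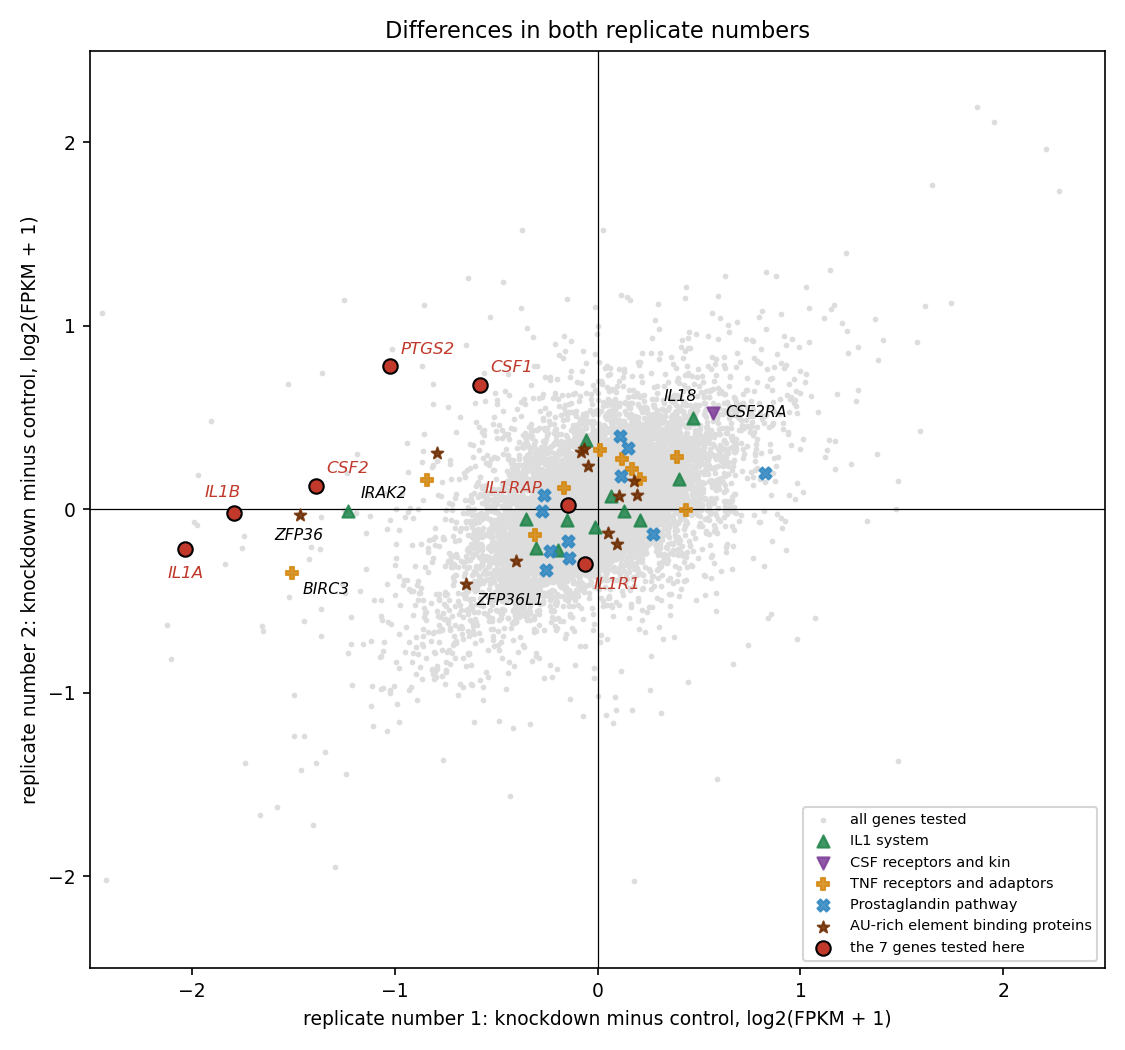
AURKA knockdown minus control within replicate number 1 (horizontal axis) and within replicate number 2 (vertical axis), both as differences in log2(FPKM + 1), for all 12137 genes tested (grey), the related lists (coloured symbols) and the 7 genes (red). The axes end at 2.5 in each direction, with 10 genes outside. IL1A and IL1B lie at the far left near a vertical value of 0, and PTGS2 and CSF1 are negative in number 1 and positive in number 2.

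The genes with the most similar pattern over the 4 libraries were found by the Euclidean distance between log2(FPKM + 1) profiles centred on each gene's mean. For CSF1, the member with the highest mean, the 5 nearest were TTLL3 (distance 0.20), RP11-159D12.5 (0.21), CEBPD (0.21), LTB4R2 (0.27) and OCLM (0.27). CEBPD, a transcription factor induced in inflammation, was at 5.11 and 2.90 FPKM in the knockdown libraries and 7.63 and 1.90 FPKM in the controls. For CSF2, the member with the widest range, the 5 nearest were PER1 (0.44), SBP1 (0.58), CXCL1 (0.62), AP001421.1 (0.66) and TNFAIP3 (0.78). PER1, a circadian clock gene, was at 9.63 and 3.23 FPKM in the knockdown libraries and 23.3 and 3.28 FPKM in the controls. CXCL1, a neutrophil chemokine, was at 6.65 and 2.85 FPKM in the knockdown libraries and 24.6 and 3.26 FPKM in the controls.

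**Figure D5:**
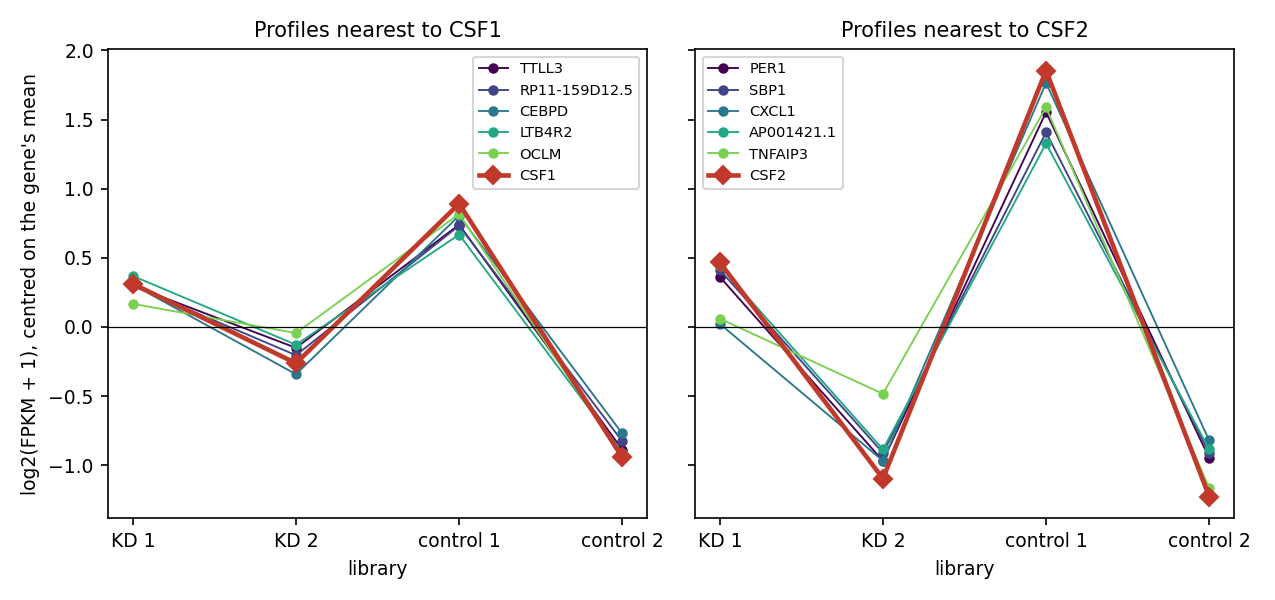
Profiles of CSF1 (left) and CSF2 (right, both red) and of the 5 genes nearest to each, as log2(FPKM + 1) centred on the gene's own mean over the 4 libraries. Lines join the AURKA knockdown (KD) and control libraries only to show which points belong to a gene. Each profile peaks in control replicate 1, as the choice of genes near CSF1 and CSF2 fixes.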

How the data were processed

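RNA of 2 AURKA knockdown and 2 control libraries was analysed from 1 deposited table per library, each with 81493 transcripts. The deposited values were taken as FPKM because they are not whole and their totals differ; the header names no unit. Per the submitters' processing notes, HTSeq 0.8.0, bcl2fastq 2.19 and hg38 were used. The program behind the FPKM values and the strand setting are not given in the sources used here, so reads of overlapping or antisense genes may be mixed. The loci lie on GRCh37 and count from 0, so 1 was added to each start.

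Tables were joined by transcript ID, of which 81412 stood in all 4 tables. Row order was the same for both tables of a replicate number but not across numbers, and 81 transcripts stood only in the tables of number 1 and 81 only in those of number 2. Rows of a gene ID were summed, giving 20140 genes. The 12137 genes past the filter (1 FPKM in 2 or more libraries) were tested by limma 3.58.1 (R 4.3.3) with trend, on log2(FPKM + 1), a scale that understates changes of low genes. The first fit has the group alone, and the second adds the replicate number as a term. An exact two-sided permutation test of 2 libraries against 2 cannot go below 0.333, so none is given. The limma script was tested on simulated data. Rough depths came from the value of 1 fragment in low single-transcript genes, where 81 to 118 of 438 to 478 genes lay near the common value. A gene's sum over transcripts gives no whole reads, and a count test was left out for that reason. Alternatives changed the pseudocount, filter, scaling, transcripts summed, replicate block and libraries. Members and lists were chosen with earlier results of these data known. Named genes are the 9 members, AURKA, the genes of each list called in either fit, the 2 of each list with the highest mean, the 5 nearest profiles of 2 members, single genes of the marker lists picked after their values were seen, and those said to be named after their values were seen. Promoters are from RefSeq (GRCh38.p14) and UTRs from GENCODE 29. The summed leukocyte marker list is not reported here.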

Additional observations from a re-analysis of the deposited data

How the results depend on the processing

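Without the replicate number as a term, 0 genes were called higher and 0 lower. The filter at 5 FPKM gave 1 higher, the TPM scale 2 higher and 1 lower, and the fit with the replicate block 194 higher and 233 lower, among them 1 higher gene of the IL-1 system (IL18), 1 higher receptor gene (CSF2RA) and 1 lower gene of the AU-rich element binding proteins (ZFP36L1). Leaving out 1 library gave 3 to 4 genes higher and 2 to 11 lower, and 0 to 1 members lower. The 1 member was IL1A, without control replicate 2 (-2.15). Same-numbered libraries deviated together (r = 0.645 across genes, which are not independent, and equal for both numbers by construction with 2 libraries a group). The labels do not say what the number marks, so the replicate block is no proof of pairing. The replicate block changed the call of 0 members. Leaving out 1 library, log2 differences spanned -2.15 to -0.099 for IL1A, -1.68 to -0.14 for IL1B, -0.24 to -0.12 for IL1R1, -0.18 to 0.057 for IL1RAP, -0.87 to 0.97 for CSF1, -2.17 to 0.91 for CSF2 and -0.84 to 0.60 for PTGS2. IL1RAP (0.057), CSF2 (0.91) and PTGS2 (0.60) changed sign without control replicate 1, CSF1 without knockdown replicate 1 (-0.24) or control replicate 2 (-0.87), CSF2 without knockdown replicate 2 (0.15) and PTGS2 without knockdown replicate 1 (0.060). The cause was not tested. A lone library is assumed there to vary like the others. The pseudocount of 0.1, no filter on low values, both rescalings and the sum over transcripts in all 4 tables changed no sign and no call of a member. At 5 FPKM, IL1A, IL1B, IL1R1 and PTGS2 could not be fitted, as fewer than 2 libraries reached that level.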
